A study of Mus musculus with 4 samples.

Results

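The genes described here copy the genome and make its building blocks: 42 genes of DNA replication and nucleotide supply, listed by name, with earlier results of these arrays known. Of these, 41 had a probe set carrying their symbol alone, out of 18193 genes represented on the array in that way. Each gene was read from its probe set with the highest mean, and 39 of the 41 were bright enough to be tested. Chaf1a was not analysed here, and Orc1 and Tyms lay below the filter on dim genes.

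The lungs came from B6/J mice. IKKa floxed mice, with a conditional allele of the IκB kinase subunit IKKα, gave 2 lung samples, and wild type mice gave 2. Both genotypes, wild type included, were given Cre recombinase by adenovirus into the trachea, and lungs were taken 4 months afterwards. Cre acts only in cells that the virus reached, and the transcript of the targeted gene was not analysed here, so the extent of deletion is not known from these arrays. Age and sex are not in the labels. Nor is it stated that the 2 samples of a genotype are different mice, and the p-values below cover only the variation among these 4 arrays, part of which may be technical. Lung markers were bright on every array, with a lowest value of 212.5 over a list of 11 genes. The surfactant gene Sftpc gave 13618 and 10831 in floxed lungs, against 9204 and 8743 in wild type lungs. The club cell gene Scgb1a1 gave 19539 and 16203 in floxed lungs, against 14552 and 14417 in wild type lungs. Foxj1, from the same list, ran the other way, with 226.5 and 212.5 in floxed lungs, against 274.7 and 272.2 in wild type lungs. All values are the deposited linear intensities, in arbitrary units.

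Arrays of the 2 groups also differed in other ways. Xist, the RNA of the inactive X chromosome in female cells, gave 4246 and 4629 in floxed lungs, against 31.8 and 22.9 in wild type lungs. The Y-linked gene Eif2s3y gave 3.77 and 6.14 in floxed lungs, against 519 and 530 in wild type lungs, so genotype and sex pattern cannot be told apart. Of the genes described here, Pola1 is the 1 on the X chromosome. The 3′ to 5′ signal ratio of Gapdh, a gauge of RNA integrity, was 1.44 and 1.68 on floxed arrays, against 1.18 and 1.10 on wild type arrays. The same ratio of beta-actin lay closer between the groups, at 2.67 and 2.77 on floxed arrays, against 2.65 and 2.46 on wild type arrays.

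Before a cell divides, each replication origin is licensed in G1 phase: the origin recognition complex, with Cdc6 and Cdt1, loads a ring of MCM proteins onto DNA. In S phase, Cdc45 and the GINS complex turn that ring into a running helicase, primase and polymerases copy the strands, and the sliding clamp PCNA, loaded by replication factor C, holds the copying enzymes in place. Ribonucleotide reductase, thymidylate synthase and thymidine kinase supply the deoxynucleotides. Many of these genes are transcribed by E2F factors as cells leave quiescence. Most cells of an adult lung are not dividing.

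Of the tested genes, 3 rose in the floxed lungs: Uhrf1, Rrm2 and Mcm5, by 1.88-fold, 1.80-fold and 1.71-fold on the log2(intensity + 16) scale, which understates changes of dim genes. Uhrf1 recognises half-methylated DNA and recruits the methyltransferase Dnmt1. Rrm2 is the small subunit of ribonucleotide reductase, and Mcm5 belongs to the helicase ring. They made up 7.69% of the 39 genes tested, and none fell. Across all 12735 genes tested, 0.997% were called higher and 0.730% lower by limma at a Benjamini-Hochberg adjusted p under 0.05. The calls were near the threshold: adjusted p was 0.0266 for Rrm2, 0.0322 for Mcm5 and 0.0329 for Uhrf1. Just outside it stood Gins1 at 0.0802, Cdc6 at 0.101, Fen1 and Cdt1 at 0.112 and Mcm3 at 0.181. Leaving out 1 array kept Rrm2 alone (without floxed replicate 1), Mcm5 alone (without floxed replicate 2), Uhrf1 with Gins1 (without wild type replicate 1) or none (without wild type replicate 2). None of the 3 passed with no filter on dim genes, with a pseudocount of 1, or with replicate number added to the fit. All 3 passed with quantile normalization, with a pseudocount of 64, or with an intensity trend and robust prior. With the filter at the 50th percentile, Mcm5 and Rrm2 passed and Uhrf1 was too dim to be tested. With all probe sets of a gene averaged, Mcm5 and Uhrf1 did not pass, at 0.43 and 0.37 on the log2 scale (adjusted p = 0.173 and 0.331 in limma), and Rrm2 passed at 0.61 (adjusted p = 0.0480). When each probe set was tested as its own feature, 0 of the genes passed, and the lowest adjusted p in limma was 0.0599, for Rrm2.

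Most of the other genes lay on the same side without passing the test. The log2 fold change, floxed minus wild type, was above 0 for 33 of 39 (84.6%), against 50% of all genes tested. Its median was 0.22 over the 39, 0.21 over all 41 with no filter, and 0.00 over all genes tested. With all probe sets of a gene averaged, the median of the replication genes was 0.14, and with a pseudocount of 64 it was also 0.14. Both floxed arrays lay above both wild type arrays for 25 of 39 (64.1%), against 23.5% of all genes tested. The opposite order held for 1 of 39, Rfc4, against 22.2% of all genes. An unadjusted limma p under 0.05 with a higher level was reached by 13 genes (33.3%), against 7.16% of all genes. In either direction it was reached by the same 13, and by 1820 of all 12735 genes tested. Floxed replicate 2 was the highest array for 20 of the 39 genes and floxed replicate 1 for 15, while wild type replicate 2 was the lowest for 18 and wild type replicate 1 for 15. Gins1 and Mcm10 would have been under the filter on their wild type level alone.

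**Figure D1:**
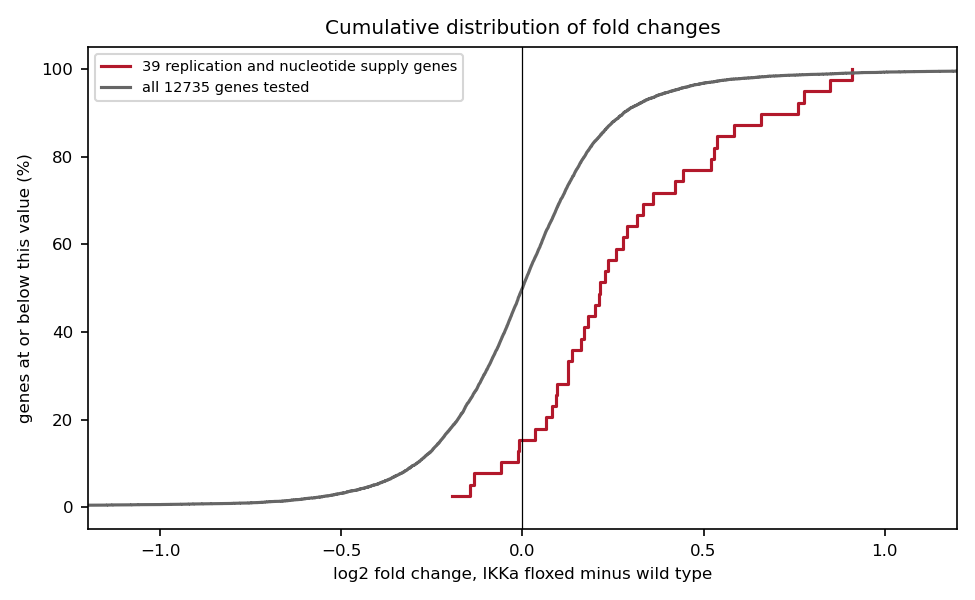
Cumulative share of genes (vertical axis, %) at or below each log2 fold change, IKKa floxed minus wild type (horizontal axis), for 39 replication and nucleotide supply genes and for all 12735 genes tested. The curve of the 39 genes lies to the right, with a median of 0.22 against 0.00.

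The size of these differences bears on what 4 arrays can call. In simulated data for this comparison, 3.5% of genes changed 1.5-fold were recovered and 68.5% of those changed 2-fold. Those folds were set on the log2 scale of the test, on which a dim gene's change in intensity is understated. The smallest called change among all genes was 0.67 on the log2 scale. A gene that missed the threshold is therefore given below with its 95% interval and not as unchanged. In bulk tissue, a larger fraction of cycling cells and more RNA in each cycling cell cannot be told apart.

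**Figure D2:**
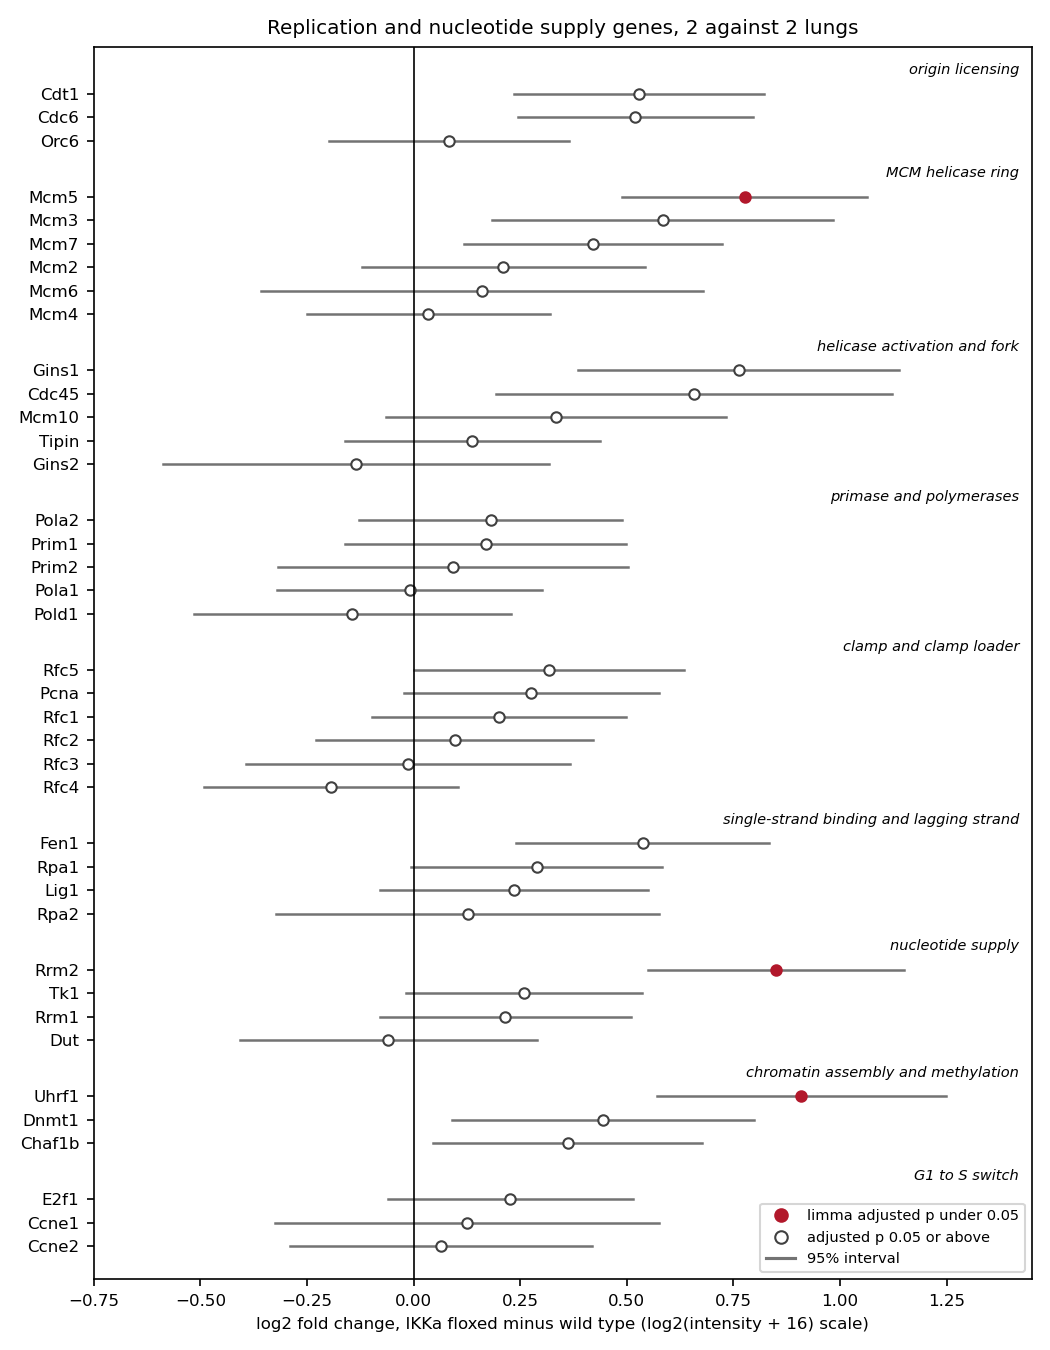
Log2 fold change (points) with its 95% interval (bars) for each tested gene, IKKa floxed minus wild type on the log2(intensity + 16) scale, grouped by role. Filled points mark Mcm5, Rrm2 and Uhrf1, the 3 genes with an adjusted p under 0.05, and 33 of the 39 points lie above 0.

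The promoters of these genes are known for E2F sites, and sequences are shown here because E2F control is the best known feature the group shares. RefSeq promoters (GRCm38.p6, 250 bases before to 50 after each annotated start) were found for 35 of the 42 genes. They were searched on both strands for 4 spellings of the E2F consensus, TTTGGCGC, TTTCCCGC, TTTGCCGC and TTTCGCGC. At least 1 was present for 13 of the 35 genes (37.1%), against 2.6% of 27025 genes with a promoter in the table and 4.51% of tested genes. The same spellings without the first T, which include the longer ones, were found for 22 genes (62.9%), against 10.9% of all genes and 18.8% of tested genes. CCAAT was found on either strand for 21 genes (60.0%), against 41.1% of all genes and 42.3% of tested genes. The median log2 fold change was 0.43 for the 12 tested genes with a longer E2F spelling and 0.22 for the 20 without. For the shorter spelling it was 0.30 with (20 genes) and 0.24 without (12 genes), and for CCAAT 0.28 with (19 genes) and 0.24 without (13 genes).

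The stretches below lie upstream of the start. Capitals mark E2F spellings on either strand, and where 2 overlap they form 1 run. Mcm5 (chr8:75109311-75109412, plus strand) was called and holds 2 overlapping spellings, TTTCGCGC and, on the opposite strand, TTTGGCGC. Uhrf1 (chr17:56304083-56304180, plus strand) was called and holds 1. Mcm6 (chr1:128359720-128359840, minus strand) was not called and holds 3, of which 2 overlap. Rrm2 (chr12:24708159-24708253, plus strand) was called and holds none of the 4 in its window, though it holds the shorter spelling, and its capitals mark CCAAT. The promoters of Mcm5, Uhrf1 and Mcm6 also hold CCAAT on either strand, which the capitals in their stretches do not mark. A match shows the letters and does not show binding.
Mcm5: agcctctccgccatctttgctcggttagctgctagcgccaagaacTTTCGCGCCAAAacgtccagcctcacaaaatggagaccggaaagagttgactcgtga
Uhrf1: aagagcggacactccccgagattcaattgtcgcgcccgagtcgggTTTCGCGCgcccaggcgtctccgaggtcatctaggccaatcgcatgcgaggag
Mcm6: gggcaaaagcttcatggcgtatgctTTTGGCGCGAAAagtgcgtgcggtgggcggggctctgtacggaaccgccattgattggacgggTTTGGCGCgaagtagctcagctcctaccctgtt
Rrm2: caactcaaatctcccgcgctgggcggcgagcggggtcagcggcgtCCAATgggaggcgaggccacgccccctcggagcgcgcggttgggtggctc

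The licensing factors Cdc6 and Cdt1 had the highest fold changes of their step without passing the test. Cdc6, the ATPase that brings the MCM ring to an origin, gave 51.4 and 51.5 in floxed lungs, against 30.4 and 31.6 in wild type lungs (log2 fold change 0.52 ± 0.12 SE, 95% interval 0.24 to 0.80). Cdt1, its partner in loading, gave 241 and 216 in floxed lungs, against 150 and 156 in wild type lungs (0.53 ± 0.12 SE, 0.24 to 0.82). The floxed arrays lay above the wild type arrays for both genes, and the replicates of each group stood close together. A second, dimmer probe set of Cdt1 had a log2 fold change of -0.07. Orc6, a subunit of the origin recognition complex, gave 175 on both floxed arrays, against 170 and 159 in wild type lungs, with a log2 fold change of 0.08 (95% interval -0.20 to 0.36). Orc1, the largest subunit, gave 34.5 and 5.07 in floxed lungs, against 4.16 and 27.9 in wild type lungs, too low to be tested.

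The 6 subunits of the MCM2-7 ring, which work in a complex holding 1 copy of each, had log2 fold changes from 0.03 to 0.78, and 1 of them, Mcm5, passed the test. Mcm5 gave 271 and 249 in floxed lungs, against 141 and 149 in wild type lungs, a log2 fold change of 0.78 ± 0.12 SE. Its mean was 260 ± 15.2 in floxed lungs and 145 ± 5.32 in wild type lungs (SD, n = 2 arrays each). Mcm3 gave 157 and 175 in floxed lungs, against 124 and 88.5 in wild type lungs (0.58, 95% interval 0.18 to 0.98, adjusted p = 0.181 in limma). For both genes the groups were clear of each other, and Mcm3 had the wider spread between its wild type lungs. Mcm7 gave 466 and 514 in floxed lungs, against 380 and 344 in wild type lungs (0.42, 0.12 to 0.72). The 4 tested probe sets of Mcm7 ran from -0.00022 to 0.42, and the average of all gave 0.18. Mcm2 gave 89.0 and 104 in floxed lungs, against 74.4 and 88.3 in wild type lungs (0.21, -0.12 to 0.54). The lower floxed array of Mcm2 lay barely above the higher wild type array. Mcm4 gave 421 and 395 in floxed lungs, against 409 and 387 in wild type lungs, a log2 fold change of 0.03 (95% interval -0.25 to 0.32). Mcm6 gave 244 and 357 in floxed lungs, against 309 and 223 in wild type lungs (0.16, -0.36 to 0.68). For Mcm4 and Mcm6 the groups overlapped, and the Mcm6 arrays of 1 genotype differed more from each other than the group means did. These differences among subunits were not tested against each other. The tested probe sets of Mcm3 ran from 0.09 to 0.58 and those of Mcm4 from -0.19 to 0.03. Those of Mcm2, Mcm5 and Mcm6 all lay above 0.

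**Figure D3:**
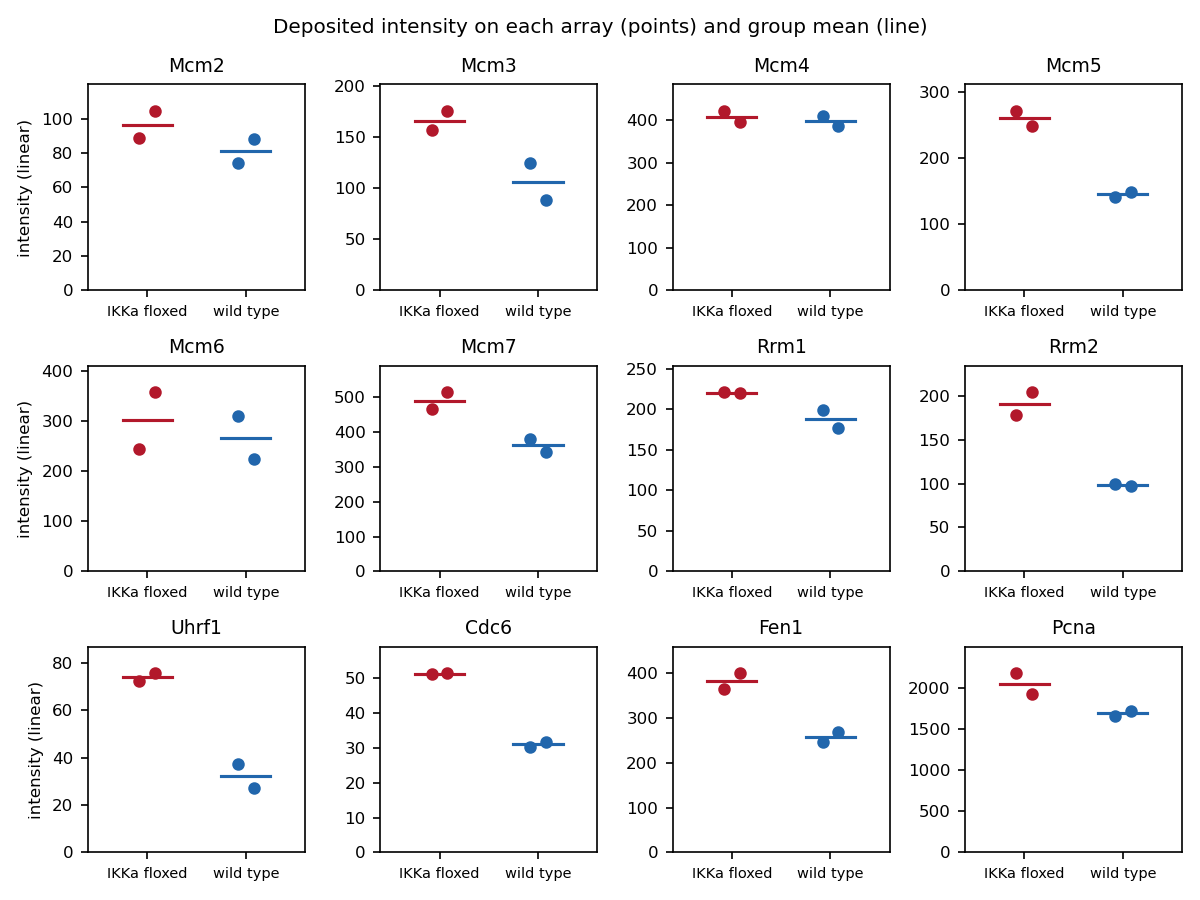
Deposited linear intensity (vertical axis, from 0, on its own scale for each gene) of 12 genes on the 2 IKKa floxed and 2 wild type arrays, with points for arrays and a line for the group mean. The groups overlap for Mcm4 and Mcm6. They are apart for the other genes shown, both for the called Mcm5, Rrm2 and Uhrf1 and for those not called.

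Among the factors that switch the ring on, Gins1 and Cdc45 had the largest log2 fold changes, and none of the 5 genes passed the test. Gins1, a subunit of the GINS complex, gave 47.5 and 40.2 in floxed lungs, against 23.8 and 15.1 in wild type lungs (log2 fold change 0.76 ± 0.16 SE, adjusted p = 0.0802 in limma). It passed without wild type replicate 1. Cdc45, which binds the ring with GINS, gave 35.1 and 54.7 in floxed lungs, against 26.8 and 17.9 in wild type lungs (0.66 ± 0.20 SE, 95% interval 0.19 to 1.12). The groups did not overlap for either gene, and the floxed arrays of Cdc45 differed widely. A second probe set of Cdc45, under the filter, ran the other way, at 2.81 and 5.25 in floxed lungs, against 12.7 and 22.8 in wild type lungs, and the average of both gave a log2 fold change of -0.041. Gins2, a partner of Gins1 in the same complex, gave 39.99 and 29.99 in floxed lungs, against 49.8 and 31.2 in wild type lungs (-0.13, -0.59 to 0.32). Its other probe set stood at 0.30, so the direction for Gins2 depends on the probe set. Mcm10, an activator that binds the helicase, gave 30.1 and 26.0 in floxed lungs, against 24.5 and 14.1 in wild type lungs (0.33, -0.07 to 0.73). Tipin, which steadies moving forks, had a log2 fold change of 0.14 (-0.16 to 0.44).

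The enzymes that start and extend new strands had the lowest median log2 fold change of the roles, 0.09. Pola1, the catalytic subunit of polymerase alpha, gave 72.5 and 72.6 in floxed lungs, against 66.5 and 80.3 in wild type lungs (log2 fold change -0.01, 95% interval -0.32 to 0.30). Its partner Pola2 gave 94.6 and 80.8 in floxed lungs, against 78.5 and 72.1 in wild type lungs (0.18, -0.13 to 0.49). The primase subunits Prim1 and Prim2 stood at 0.17 (-0.16 to 0.50) and 0.09 (-0.32 to 0.50). Pold1, the catalytic subunit of polymerase delta, was at -0.14 (-0.52 to 0.23), with a second probe set at 0.10. Within this step 0 of 5 genes reached an unadjusted p under 0.05 in limma, and the groups overlapped for 4 of the 5. Of all genes tested, 23.5% had both floxed arrays above both wild type arrays and 22.2% had them below. The remaining genes overlapped.

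None of the 6 clamp and clamp loader genes passed the test in limma, and 1 reached an unadjusted p under 0.05. Pcna, the ring-shaped clamp, was bright on every array, with 2172 and 1924 in floxed lungs, against 1657 and 1712 in wild type lungs (log2 fold change 0.28, 95% interval -0.02 to 0.58). Of the 5 loader subunits, Rfc5 had the highest value, with 96.3 and 102 in floxed lungs, against 84.3 and 69.4 in wild type lungs (0.32, 0.00 to 0.63). Rfc4 gave 90.8 and 103 in floxed lungs, against 116 and 110 in wild type lungs (-0.19, -0.49 to 0.10). It was the 1 gene with both floxed arrays below both wild type arrays, though a second probe set stood at 0.12. The remaining subunits Rfc1, Rfc2 and Rfc3 were at 0.20, 0.10 and -0.01, and the 3 probe sets of Rfc2 ran from -0.24 to 0.55.

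On the lagging strand, Fen1 had the highest fold change of 4 genes, none of which passed the test in limma. Fen1, the nuclease that trims Okazaki fragment flaps, gave 363 and 399 in floxed lungs, against 247 and 268 in wild type lungs (log2 fold change 0.54 ± 0.12 SE, adjusted p = 0.112 in limma). Its second probe set stood at 0.48, and Fen1 passed with a pseudocount of 64 or with an intensity trend and robust prior. Lig1, the ligase that seals the fragments, gave 97.4 and 106 in floxed lungs, against 76.9 and 91.3 in wild type lungs (0.24, 95% interval -0.08 to 0.55). Rpa1 and Rpa2 encode subunits of the protein that coats single-stranded DNA. Rpa1 gave 1302 and 1265 in floxed lungs, against 1106 and 992 in wild type lungs (0.29, -0.01 to 0.58). The groups were apart for Fen1, Lig1 and Rpa1, with floxed arrays above, an order held by 23.5% of all genes tested. They overlapped for Rpa2, whose floxed arrays stood at 146 and 95.9, against 112 and 103 in wild type lungs (0.13, -0.32 to 0.58).

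In nucleotide supply, the 2 subunits of ribonucleotide reductase gave different values. Rrm2, the small subunit, whose abundance follows S phase, gave 178 and 204 in floxed lungs, against 99.7 and 97.4 in wild type lungs (log2 fold change 0.85 ± 0.13 SE, adjusted p = 0.0266 in limma). Its mean was 191 ± 18.3 in floxed lungs and 98.6 ± 1.66 in wild type lungs (SD, n = 2 arrays each). Rrm1, the large subunit, gave 221 and 220 in floxed lungs, against 199 and 176 in wild type lungs (0.22, 95% interval -0.08 to 0.51). On the probe sets used, both had floxed arrays above wild type arrays, and the difference between the subunits was not tested. The other probe sets of Rrm2 stood at 0.70 and 0.27. A second tested probe set of Rrm1 stood at -0.087, with 86.5 and 60.1 in floxed lungs, against 76.0 and 79.5 in wild type lungs. The average of all Rrm1 probe sets gave a log2 fold change of 0.041. Tk1, the cytosolic thymidine kinase, gave 42.1 and 42.3 in floxed lungs, against 32.2 and 33.0 in wild type lungs (0.26, -0.02 to 0.53), with a small gap between the groups. Dut, which breaks down dUTP, was at -0.06 (-0.41 to 0.29). Tyms, thymidylate synthase, gave 14.0 and 18.1 in floxed lungs, against 15.4 and 12.1 in wild type lungs, below the filter.

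Of 4 genes that rebuild chromatin and methylation behind the fork, Uhrf1 passed the test, Dnmt1 and Chaf1b did not, and Chaf1a was not analysed here. Uhrf1, which recognises half-methylated DNA, gave 72.3 and 75.6 in floxed lungs, against 37.2 and 27.1 in wild type lungs (log2 fold change 0.91 ± 0.14 SE, adjusted p = 0.0329 in limma). Its mean was 73.9 ± 2.34 in floxed lungs and 32.1 ± 7.11 in wild type lungs (SD, n = 2 arrays each). This was the highest fold change of the 39 genes. Dnmt1, the methyltransferase that Uhrf1 recruits, gave 406 and 321 in floxed lungs, against 250 and 273 in wild type lungs (0.44, 95% interval 0.09 to 0.80). Its 3 probe sets ran from 0.05 to 0.44. Chaf1b, a subunit of the histone chaperone that packs new DNA, gave 32.2 and 40.5 in floxed lungs, against 23.8 and 25.5 in wild type lungs (0.36, 0.05 to 0.68). A second probe set of Chaf1b, under the filter, stood at 2.17 and 12.1 in floxed lungs, against 21.5 and 14.6 in wild type lungs, and the average of both gave a log2 fold change of -0.11. On the probe sets used, floxed arrays lay above wild type arrays for all 3 genes, an order held by 23.5% of all genes tested. Dnmt1 and Chaf1b missed the threshold (adjusted p = 0.243 and 0.284 in limma). A second probe set of Uhrf1 was under the filter, at 2.45 and 12.6 in floxed lungs, against 9.98 and 9.77 in wild type lungs.

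None of the 3 regulators of entry into S phase passed the test in limma, and 0 reached an unadjusted p under 0.05. E2f1, a transcription factor that drives replication genes, gave 62.1 and 63.3 in floxed lungs, against 48.4 and 54.3 in wild type lungs (log2 fold change 0.23, 95% interval -0.06 to 0.51). Ccne1 and Ccne2 encode cyclin E, the partner of the kinase Cdk2. Their log2 fold changes were 0.13 (-0.32 to 0.58) and 0.06 (-0.29 to 0.42), with overlapping groups.

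Probe sets of 1 gene did not always point the same way. In all, the genes had 93 probe sets, of which 70 passed the filter and 56 of those lay above 0. Among 23 genes with more than 1 tested probe set, all probe sets were above 0 for 11, all were below 0 for 1 and they differed in sign for 11. For 10 genes the probe set used has an ID ending in x or s, which the array's maker gives to probe sets that can also bind other transcripts. Those of Mcm5 and Rrm2 are of this kind, and with such probe sets set aside the values were 0.51 and 0.70 (adjusted p = 0.143 and 0.0669 in limma). The probe set of Uhrf1 is not of this kind, and its adjusted p was then 0.0370, against 0.331 when its probe sets were averaged.

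**Figure D4:**
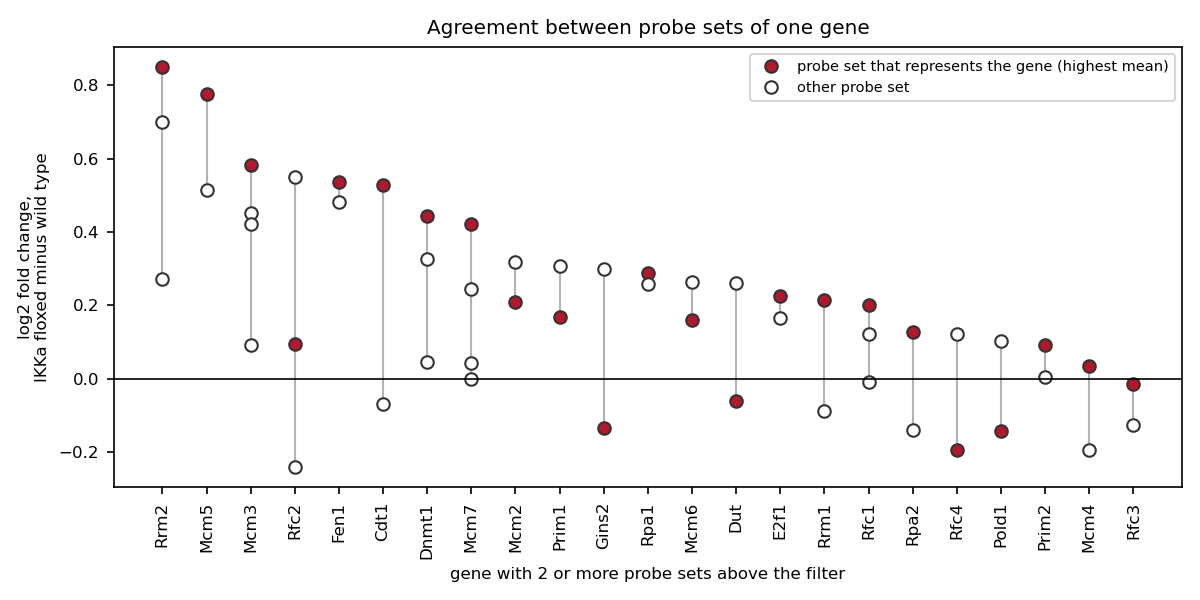
Log2 fold change, IKKa floxed minus wild type, of every probe set above the filter (points) for the 23 genes with more than 1, with the probe set that represents the gene filled and the others open. Rrm2, Mcm5, Mcm3 and Fen1 have all points above 0, while probe sets of 11 genes fall on both sides.

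A separate list of 88 further genes of replication, nucleotide metabolism and the G1 to S switch gave 1 call among 79 tested. Over all genes tested, 0.997% were called higher and 0.730% lower. The call in this list was Cdkn1a, the p21 inhibitor of cyclin-dependent kinases, which also binds PCNA. It gave 700 and 524 in floxed lungs, against 218 on both wild type arrays (log2 fold change 1.41 ± 0.16 SE, adjusted p = 0.00959 in limma), and it passed whichever array was left out, but not with no filter on dim genes. The median of the 79 was 0.08, with 50 above 0, against a median of 0.00 and 50% above 0 over all genes tested. An unadjusted limma p under 0.05, in either direction, was reached by 9 of the 79, against 1820 of all 12735 genes tested. Of 12 other licensing and firing genes none passed in limma, and 0 had an unadjusted p under 0.05 (median 0.02). Dbf4, which activates the kinase Cdc7, and Mcm8, a relative of the ring subunits, stood at 0.27 and 0.26. Of 19 other fork, polymerase and lagging strand genes none passed, and 2 had an unadjusted p under 0.05 (median 0.02). The lowest were Pole4, an accessory subunit of polymerase epsilon, at -0.40 (95% interval -0.69 to -0.10), and Rpa3, the smallest subunit of the single-strand binding protein, at -0.30 (-0.58 to -0.01). So Rpa3 lay below 0 while Rpa1 and Rpa2 lay above it.

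Of 15 other nucleotide genes none passed in limma, and 3 had an unadjusted p under 0.05 (median -0.02). That level was reached by 1820 of all 12735 genes tested, in either direction. Samhd1, which breaks down deoxynucleotides and is induced by interferon, gave 1137 and 893 in floxed lungs, against 598 and 651 in wild type lungs (log2 fold change 0.68, 95% interval 0.32 to 1.04, adjusted p = 0.102 in limma). Dck, the salvage kinase for deoxycytidine, gave 353 and 406 in floxed lungs, against 249 and 262 in wild type lungs (0.54, 0.23 to 0.84, adjusted p = 0.118). Both had groups that did not overlap. The third was Shmt1, an enzyme of folate metabolism, chosen after its value was seen, which ran the other way. It gave 64.1 and 55.2 in floxed lungs, against 78.7 and 102 in wild type lungs (-0.49, -0.85 to -0.13, adjusted p = 0.211). Of 10 chromatin and histone supply genes none passed and 1 had an unadjusted p under 0.05 (median 0.18), with Hells, a chromatin remodeller, at 0.43 and the histone chaperone Asf1b at 0.44. Among 23 other G1 to S regulators, Cdkn1a was the 1 call (median 0.14), and Ccnd3, a D-type cyclin, stood at 0.40 (0.10 to 0.70).

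Genes of mitosis, in which the copied chromosomes are parted, were also examined. Of 18 tested, 3 rose (Mki67, Ube2c and Nusap1), all 18 lay above 0 and the median log2 fold change was 0.43. Across all 12735 genes tested, 0.997% were called higher, 50% lay above 0 and the median was 0.00. The mitosis list had a summed intensity of 1462 and 1397 in floxed lungs, against 987 and 783 in wild type lungs. Mki67, the Ki-67 antigen, gave 202 and 186 in floxed lungs, against 102 and 80.0 in wild type lungs.

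Marker lists of other cell types differed between the same arrays. For comparison, 0.997% of all 12735 genes tested were called higher and 0.730% lower. T cell genes rose in 5 of 9 tested, with a summed intensity of 1406 and 1153 in floxed lungs, against 679 and 652 in wild type lungs. Cytotoxic cell genes rose in 3 of 9 (2469 and 1511 in floxed lungs, against 926 and 811 in wild type lungs), and plasma cell genes in 3 of 8 (24132 and 22519 in floxed lungs, against 8515 and 8032 in wild type lungs). Macrophage genes rose in 3 of 11 and fell in 1 (13664 and 13032 in floxed lungs, against 9579 and 9826 in wild type lungs). B cell genes had 0 calls of 5 (486 and 366 in floxed lungs, against 516 and 536 in wild type lungs). Of these, 2 had an unadjusted p under 0.05 in limma, against 1820 of all 12735 genes tested. The germinal centre genes Bcl6 and S1pr2 had no calls, with a list sum of 594 and 607 in floxed lungs, against 537 and 511 in wild type lungs. The 3 tested genes of erythroid precursors had none either (373 and 319 in floxed lungs, against 357 and 479 in wild type lungs), and in both lists 0 genes had an unadjusted p under 0.05 in limma. Heart muscle genes moved the other way, with 7 of 7 fallen (610 and 465 in floxed lungs, against 4291 and 6370 in wild type lungs). In these lists the dimmest marker ran from 0.197 in the germinal centre list to 60.2 in the macrophage list, and no marker was at 0. Lung tissue genes had 0 calls of 11, with 9 above 0, 2 below 0 and a median log2 fold change of 0.10. Over all genes tested, 50% lay above 0. The part of any of these cell types, of the sex pattern or of RNA integrity in the replication genes was not tested.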

How the data were processed

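Total RNA of 4 mouse lungs was turned into biotinylated cRNA for single-colour Affymetrix arrays, per the labels' protocols. The authors deposited 1 linear intensity per probe set and array, made with Affymetrix Expression Console, per the submitters' processing notes. The version was not given in the sources used here, nor was the summary algorithm. The mean with 2% of probe sets trimmed from each end was 150.001 on every array, so scaling preceded deposit and was kept.

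Gene names came from GEO's platform annotation, in which 34945 had 1 symbol, 932 several and 9160 none listed. Of those with 1 symbol, 34741 matched RefSeq by Entrez number. Probe sets with several symbols and 64 controls were left out. Intensities were taken as log2(intensity + 16), so fold changes of dim genes are understated. A gene had to reach an intensity of 20.4, the 30th percentile of mean levels, to be tested. For the 12735 that did, limma 3.58.1 (R 4.3.3) fitted group means on all 4 arrays (moderated by eBayes, two-sided, 2 residual degrees of freedom, Benjamini-Hochberg over all genes tested, threshold 0.05). An exact permutation test of 2 against 2 cannot reach that threshold.

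The procedure was tested on simulated data, 20 runs of 12735 genes with 200 changed. It recovered 0.1% of genes changed 1.25-fold, 3.5% at 1.5-fold, 68.5% at 2-fold and 99.5% at 4-fold, and 4.88% of calls were false. The genes described, the further lists and the motifs were chosen with earlier results of these data known, and no list test was run. All 42 genes are described. From each further list the text names genes past the threshold and the 2 with the largest moderated statistic, and from the marker lists some genes that meet either condition. Scgb1a1 and Shmt1 are named outside that rule and Sftpc within it, all after their values were seen. Alternatives changed the normalization, pseudocount, filter, probe set rule, prior, block and arrays used. The older symbol Setd8 was matched to Kmt5a through RefSeq synonyms.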

Additional observations from a re-analysis of the deposited data

How the results depend on the processing

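Besides the settings used, 14 alternatives were tried, and the 2 on probe set endings and on single probe sets were chosen after seeing the data. No replication gene was called lower under any of them. A pseudocount of 1 gave 55 genes higher and 48 lower over the whole array and 0 of the replication genes. A pseudocount of 64 gave 219 higher, 141 lower, a median log2 fold change of the replication genes of 0.14 and 3 calls among the other replication genes. No filter gave 33 higher, 36 lower, 0 replication genes and 0 other replication genes. An intensity trend with robust prior gave 237 higher, 147 lower and 3 other replication genes. The mean of all probe sets of a gene gave 1 replication gene, with a median of 0.14. Leaving out probe sets with x or s endings gave 1, and each probe set as its own feature gave 0. No label pairs the lungs by replicate number. Same-numbered deviations correlated at -0.000334, which with 2 arrays per group cannot decide whether the lungs are paired. A fit with a replicate block gave 0 calls among the replication genes. Adjusted p was then 0.0521 to 0.0641 in limma for Rrm2, Uhrf1 and Mcm5. Leaving out 1 array gave 82 to 144 genes higher, 62 to 104 lower and 0 to 2 replication genes. The median came out at 0.21 to 0.27, and the other replication genes had 1 to 3 calls. Among the 23 genes with more than 1 tested probe set, single probe sets differed in sign for 11. Over the other 13 alternatives, which give 1 value per gene, signs turned for 14 of the 39 genes, none of them called. Their log2 fold changes were 0.038 for Pola1 and 0.041 for Rfc3 with quantile normalization. With all probe sets of a gene averaged they were -0.041 for Cdc45, -0.11 for Chaf1b, 0.10 for Dut, 0.082 for Gins2, -0.079 for Mcm4, 0.025 for Pola1 and -0.0063 for Rpa2, and 0.30 for Gins2 and 0.10 for Pold1 without x or s endings. With 1 array left out they ran from -0.11 to 0.36 for Ccne1, -0.078 to 0.21 for Ccne2, -0.20 to 0.083 for Dut, -0.37 to 0.11 for Gins2, -0.0085 to 0.078 for Mcm4 and -0.098 to 0.42 for Mcm6, and from -0.12 to 0.10 for Pola1, -0.34 to 0.050 for Pold1, -0.11 to 0.30 for Prim2, -0.034 to 0.23 for Rfc2, -0.18 to 0.16 for Rfc3 and -0.14 to 0.40 for Rpa2. The cause of these changes was not tested. With 4 arrays, 3.5% of simulated 1.5-fold changes were called, so smaller changes could mostly not be detected.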
